A study of Mus musculus with 12 samples.

Results

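The 8 genes described here, Hmgcs1, Sqle, Idi1, Fdps, Fdft1, Lss, Cyp51 and Insig1, are targets of SREBP2, the transcription factor that controls sterol synthesis. They were taken by name from a list of such targets, and the rule that selects them uses no measured value, although earlier results of these data were known when the list was written. Of these, 7 encode enzymes of cholesterol synthesis and 1, Insig1, encodes a feedback protein, and no uptake receptor is among them. All 8 were found among the 24906 genes of each expression table, and all 8 passed the minimum mean level of 0.5 FPKM that left 12996 genes to test in BME and 12333 on plastic. An FPKM value counts the fragments of a gene per kilobase of its transcript, relative to the depth of the library.

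RNA-Seq was available for 12 libraries of mouse tumor organoids, which are epithelial structures grown from tumor tissue in culture. Each group shared the genotype Smad4KO;BRAFV600E/+ and the lentiviral construct pINDUCER-SMAD4, which expresses SMAD4 in the presence of doxycycline (dox). The organoids came from macroscopic tumors of mice in which Villin-CreERT2, active in the intestinal epithelium, removed Smad4, and the labels give small intestine as the tissue. In BME, a basement membrane extract for 3D culture, there were 3 untreated libraries (lines 682, 700 and 889), 2 libraries given 4 µg/mL dox for 48 h (lines 700 and 889) and 1 library of line 682 labelled as mock dox. Organoids on tissue culture plastic gave 3 untreated and 3 dox libraries, from lines 560, 700 and 889. The mock library was placed in the control arm in BME here, which then held 4 libraries. That placing was inferred from the group sizes in the study's text and is not stated there. Its genotype label names pINDUCER-SMAD4 like all others, the study's methods also mention a mock plasmid, and what the word mock refers to is not explained in the labels. Whether each line came from a separate animal is not stated in the sources used here, and p-values measure the spread between these libraries. The age of the mice is not given in the labels.

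Smad4 itself had 17.2 and 27.3 FPKM with dox in BME, 10.3 FPKM in the mock library and 6.23 to 8.88 FPKM without dox. On plastic it was at 73.6, 18.1 and 48.9 FPKM with dox in lines 560, 700 and 889, and at 1.54, 2.99 and 4.76 FPKM without. A BME library held 14528550 to 16372480 reads, as rebuilt from the deposited values, and a plastic library 16960802 to 21027925. Each of the 8 genes rested on 492 to 8870 reads in a library. The 6 epithelial markers examined (Epcam, Cdh1, Krt8, Krt18, Vil1 and Cdx2) were all present. Krt8 and Krt18 made up most of their summed level, which in BME was 5991 to 6963 FPKM with dox and 3119 to 3884 FPKM in the control arm, and on plastic 8604 to 15553 FPKM with dox and 8484 to 9108 FPKM without. In BME the change in log2(FPKM + 1), dox minus control, was 1.13 for Krt8 and 0.91 for Krt18, but 0.24 for Cdh1 and 0.04 for Cdx2. Of 10 markers of other cells, 8 stayed under 1 FPKM in every BME library and 9 in every plastic library. The exceptions were Col1a1 and Cd68 in BME and Cd68 on plastic. In line 889 on plastic Cd68 was at 38.7 FPKM with dox and 2.70 FPKM without. In line 889 in BME Col1a1 was at 4.13 FPKM with dox and 0.75 FPKM without. The part of these markers in the values below was not tested. In bulk samples, fewer cells of a type and less RNA per cell cannot be told apart.

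Cholesterol is built from acetyl-CoA through mevalonate, isoprenoid units, squalene and lanosterol, by enzymes of the cytosol and endoplasmic reticulum. When sterols in the endoplasmic reticulum are low, SCAP escorts SREBP2 to the Golgi, where it is cut and released to enter the nucleus and switch on the enzyme genes. INSIG proteins hold SCAP in the endoplasmic reticulum when sterols are plentiful. The intestinal epithelium both absorbs cholesterol and makes its own, and dividing cells need it for membranes.

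SREBP proteins bind the sterol regulatory element of a promoter beside the general factors NF-Y and SP1. Promoter entries in RefSeq (GRCm38.p6) were found for 5 of the 8 genes, Hmgcs1, Idi1, Lss, Cyp51 and Insig1, and not for Sqle, Fdps and Fdft1. The 250 bases before the start are printed for 3 of them, chosen because 1 holds the sterol element, 1 the E-box and 1 neither. Capitals mark matches on either strand to TCACNCCAC (sterol element), CACGTG (E-box), CCAAT (NF-Y) or GGGCGG (SP1), or their reverse complements.
Hmgcs1 (chromosome 13, plus strand, GRCm38.p6): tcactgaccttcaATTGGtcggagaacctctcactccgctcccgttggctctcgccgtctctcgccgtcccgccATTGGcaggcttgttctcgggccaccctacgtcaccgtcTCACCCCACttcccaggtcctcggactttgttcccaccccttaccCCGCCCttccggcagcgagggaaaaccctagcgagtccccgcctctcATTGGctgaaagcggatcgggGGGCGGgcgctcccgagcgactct
Insig1 (chr5:28397702-28397951, plus strand, NCBIM37): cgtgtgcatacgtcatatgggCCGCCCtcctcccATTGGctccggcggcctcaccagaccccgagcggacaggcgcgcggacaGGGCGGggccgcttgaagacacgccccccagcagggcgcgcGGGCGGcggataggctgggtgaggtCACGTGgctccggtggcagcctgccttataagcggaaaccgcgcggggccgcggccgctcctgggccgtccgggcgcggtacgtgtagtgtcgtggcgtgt
Idi1 (chr13:8884602-8884851, plus strand, NCBIM37): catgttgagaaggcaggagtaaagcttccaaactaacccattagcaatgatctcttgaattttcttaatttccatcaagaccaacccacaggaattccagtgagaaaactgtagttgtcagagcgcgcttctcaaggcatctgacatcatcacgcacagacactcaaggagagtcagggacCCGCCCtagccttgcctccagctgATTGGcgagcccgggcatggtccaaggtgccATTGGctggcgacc
The sterol element was matched in 1 of 5 promoters, that of Hmgcs1, at 137 bases before the start, and 1.05% of 32851 RefSeq promoters of the same length held it. The E-box was matched in 1 of 5, that of Insig1, at 101 bases before the start, against 6.02% of all promoters. CCAAT was matched in 5 of 5 promoters and in 33.8% of all, and GGGCGG in 5 of 5 and in 32.7% of all. No 2 matches overlapped. A match is only a stretch of letters, and the absence of one says nothing about binding.

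Organoids expressing SMAD4 were first compared with controls for the 8 genes together. None of the 8 passed the test with dox in BME or on plastic. The direction differed between lines. With dox, most of the 8 were higher in line 700 in BME and lower in line 700 on plastic, and line 560 on plastic showed 6 of them higher and 2 lower. The clearest shift was line 700 on plastic, where all 8 were lower with dox, with changes of -0.52 to -1.38 on the log2(FPKM + 1) scale used for every change here.

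**Figure D1:**
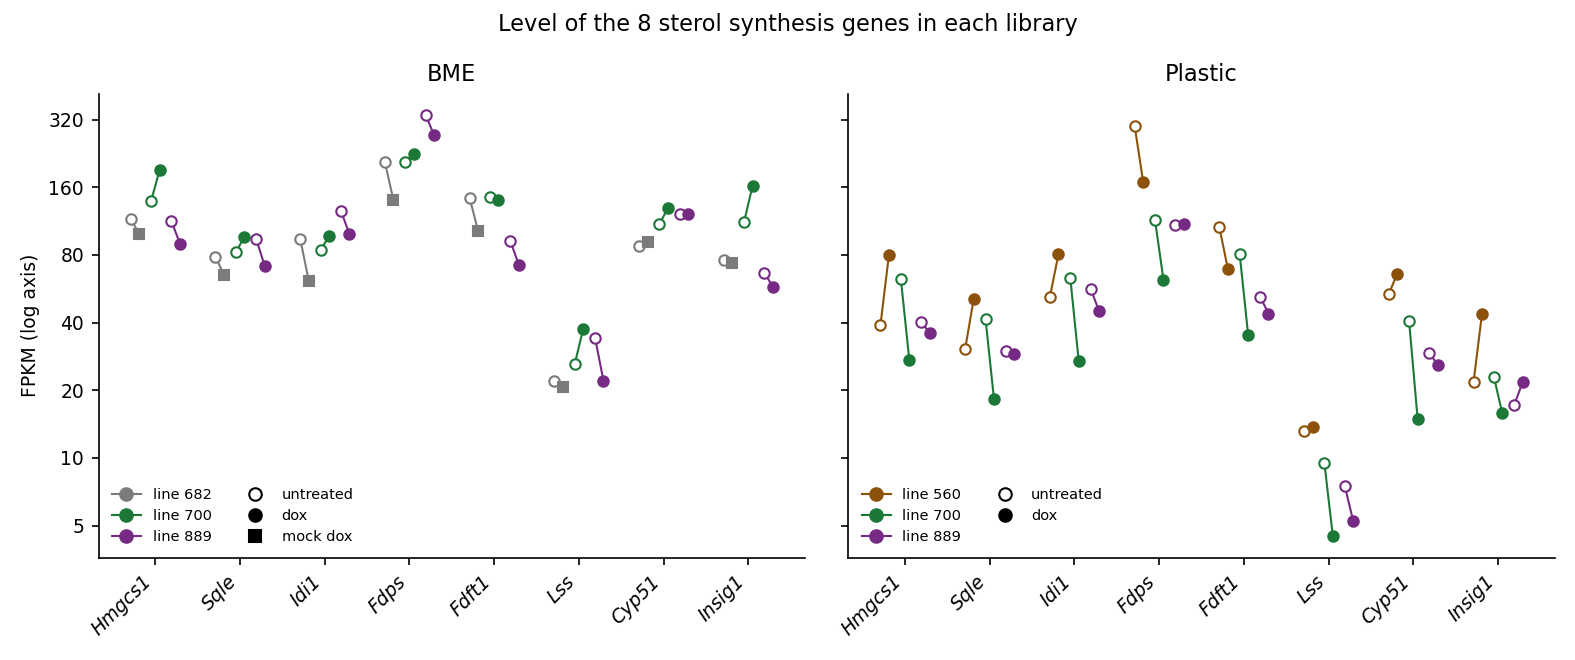
Level of each of the 8 genes in each library, in FPKM on a log axis, for BME (left) and plastic (right). Each joined pair is 1 organoid line, with the untreated library as an open symbol and the dox library as a filled circle, or a filled square for the mock library of line 682. In line 700 the filled points lie above the open ones for 7 of 8 genes in BME and below them for 8 of 8 on plastic.

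The first group of genes makes the isoprenoid units. Hmgcs1, which condenses acetyl-CoA and acetoacetyl-CoA ahead of mevalonate, was at 191 FPKM with dox and 139 FPKM without in line 700 in BME, and at 89.9 and 113 FPKM in line 889. In line 682 it was at 99.1 FPKM in the mock library and 116 FPKM untreated. The 2 dox libraries were therefore the highest and the lowest of the 6. On plastic it was at 80.4 FPKM with dox and 39.1 FPKM without in line 560, at 27.3 and 62.7 FPKM in line 700, and at 36.0 and 40.3 FPKM in line 889. Here too the dox libraries held both ends of the range, and the group means were close, 47.9 ± 28.5 FPKM with dox and 47.4 ± 13.3 FPKM without (SD, n = 3 each). The limma change was 0.18 (SE 0.31) in BME and -0.10 (SE 0.42) on plastic.

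Idi1, the isomerase that interconverts the 2 five-carbon isoprenoid units, lies at chr13:8884852-8891641 (NCBIM37). In BME it was at 96.7 and 99.4 FPKM with dox in lines 700 and 889, against 84.4 and 126 FPKM untreated. In line 682 it was at 61.6 FPKM in the mock library, the lowest of the 6, and 94.6 FPKM untreated. On plastic it was at 80.4, 27.0 and 45.1 FPKM with dox in lines 560, 700 and 889, against 52.2, 63.5 and 56.7 FPKM without. The 3 untreated plastic libraries lay close together, with the dox library of line 560 above them and those of lines 700 and 889 below. Changes were 0.14 (SE 0.28) in BME and -0.30 (SE 0.39) on plastic. Its paralog Idi2 stayed at or under 0.125 FPKM in every library.

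Fdps, which joins isoprenoid units into farnesyl diphosphate (chr3:88897514-88905881, minus strand), had the highest median level of the 8 in both environments. It was at 225 and 273 FPKM with dox in lines 700 and 889 in BME, against 208 and 337 FPKM untreated. The mock library, at 140.6 FPKM, was the lowest of the 6, with 207 FPKM in untreated line 682. On plastic it was at 169.9, 62.2 and 110.1 FPKM with dox in lines 560, 700 and 889, and at 301, 114.6 and 109 FPKM without. Untreated line 560 stood far above the rest. Fdps had a change of 0.22 (SE 0.34) in BME and -0.56 (SE 0.52) on plastic in the fit. The BME change was 0.02 without the mock library and 0.44 without untreated line 889, and the plastic change was -0.09 without untreated line 560.

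The second group commits carbon to sterols. Fdft1, squalene synthase (chr14:63763990-63796630, minus strand), was at 141 and 72.4 FPKM with dox in lines 700 and 889 in BME, and at 145 and 92.4 FPKM untreated. The mock library was at 102 FPKM and untreated line 682 at 144 FPKM. On plastic it was at 69.6, 35.2 and 43.9 FPKM with dox in lines 560, 700 and 889, and at 106, 80.8 and 52.2 FPKM without. It was the 1 gene of the 8 that was lower with dox in all 5 dox pairs, and it was also lower in the mock pair. The share of all genes that were lower in all 5 was not counted. The groups still overlapped, since the lowest untreated plastic library was below the highest dox library. Its change was -0.23 (SE 0.33) in BME and -0.68 (SE 0.35) on plastic, with a 95% interval of -1.52 to 0.17 there. With the line as a replicate block the plastic change had an unadjusted limma p of 0.0371 and an adjusted p of 0.338, against 0.101 and 0.667 without the block. In the block fit 918 higher and 746 lower genes of 12333 had an unadjusted p under 0.05.

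Sqle, the epoxidase of squalene (chr15:59146632-59162747), was at 96.2 and 71.8 FPKM with dox in lines 700 and 889 in BME, against 82.2 and 94.5 FPKM untreated. The mock library was at 65.3 FPKM and untreated line 682 at 78.6 FPKM. On plastic the levels were 50.9, 18.2 and 29.0 FPKM with dox in lines 560, 700 and 889, and 30.6, 41.5 and 30.1 FPKM without. The dox library of line 560 lay above all untreated ones and the other 2 below them. The change was 0.06 (SE 0.20) in BME and -0.16 (SE 0.38) on plastic.

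Lss, lanosterol synthase (chr10:75994333-76019883), had the lowest median level of the 8 in both environments. It was at 37.5 and 22.0 FPKM with dox in lines 700 and 889 in BME, against 26.1 and 34.3 FPKM untreated, and at 20.8 FPKM in the mock library and 22.0 FPKM in untreated line 682. On plastic it was at 13.8, 4.47 and 5.23 FPKM with dox in lines 560, 700 and 889, and at 13.2, 9.47 and 7.51 FPKM without. Both libraries of line 560 stood above the other 4. Its change was 0.18 (SE 0.28) in BME and -0.44 (SE 0.42) on plastic.

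Cyp51, the demethylase of lanosterol (chr5:4081145-4104746, minus strand), was at 129 and 121 FPKM with dox in lines 700 and 889 in BME, against 109.9 and 122 FPKM untreated, and at 91.3 FPKM in the mock library and 87.8 FPKM in untreated line 682. Its change there, 0.30 (SE 0.17, 95% interval -0.13 to 0.72), had an unadjusted limma p of 0.139, and was 0.11 (unadjusted limma p 0.397) with the line as a replicate block. On plastic it ranged more widely, at 66.1, 14.98 and 25.9 FPKM with dox in lines 560, 700 and 889, and at 53.6, 40.5 and 29.3 FPKM without. The plastic change was -0.42 (SE 0.53).

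The feedback gene Insig1 (chr5:28397952-28405201), whose protein retains SCAP, was at 163 and 57.6 FPKM with dox in lines 700 and 889 in BME, against 112 and 66.7 FPKM untreated. Line 682 was at 73.7 FPKM in the mock library and 75.8 FPKM untreated. The dox libraries were again the highest and the lowest. On plastic Insig1 was at 43.7, 15.8 and 21.7 FPKM with dox in lines 560, 700 and 889, and at 21.7, 23.0 and 17.2 FPKM without. It was the only one of the 8 with a positive plastic change in the fit, 0.26 (SE 0.37), and its BME change was 0.27 (SE 0.43).

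**Figure D2:**
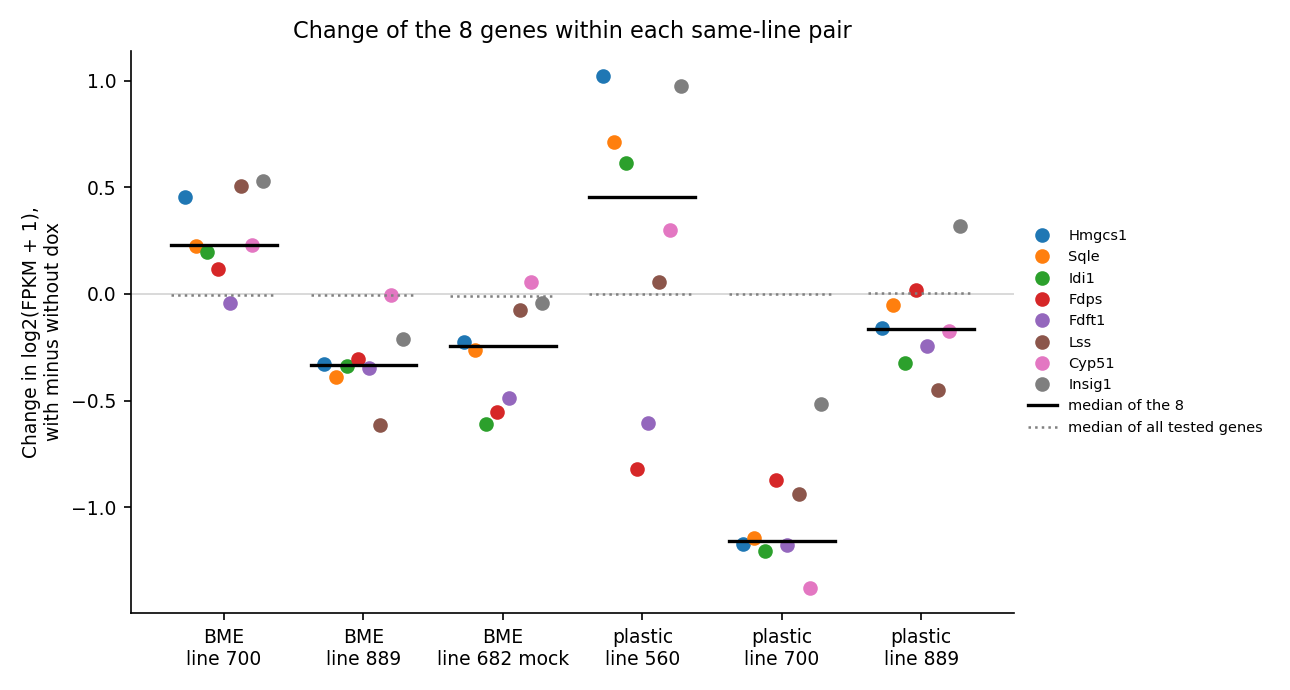
Change in log2(FPKM + 1) of each of the 8 genes, library with dox minus untreated library of the same line, in 5 dox pairs and the mock pair of line 682. Black bars are the median of the 8 genes and dotted bars the median of all genes tested. The black bars lie at 0.23, -0.33 and -0.24 in BME and at 0.46, -1.16 and -0.17 on plastic, while the dotted bars stay near 0.

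The 8 genes were next followed within each line. In BME, line 700 had 7 of the 8 higher with dox, with a median of 0.23, where 48.3% of all genes tested were higher. Line 889 had all 8 lower, with a median of -0.33, where 50.6% of all genes were lower. The mock pair of line 682 had 7 of the 8 lower, with a median of -0.24, where 51.1% of all genes were lower. The median of the mock pair thus lay between those of the dox pairs. The mean of the 2 dox medians in BME was -0.05 ± 0.40 (SD, n = 2).

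On plastic, line 700 had all 8 lower with dox, where 50.0% of all genes tested were lower. All 8 were lower there by more than 0.5, which held for 12.9% of all genes, and the median was -1.16. Line 889 had 6 of the 8 lower, with a median of -0.17, where 49.0% of all genes were lower. Line 560 had 6 of the 8 higher, with a median of 0.46, where 49.7% of all genes were higher. The mean of the 3 plastic medians was -0.29 ± 0.81 (SD, n = 3), so the spread between lines was larger than the mean. Genes of 1 pathway in 1 library are not independent, and these counts describe the lines and are not tests.

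Tested over libraries, limma called 0 of the 8 genes in BME, where 3 of 12996 genes (0.0231%) passed with an adjusted p under 0.05 and a change of over 1 in either direction. At an unadjusted p under 0.05 it was also 0 of 8, where 4.09% of all genes passed. For 0 of 8 genes did the dox libraries lie wholly above or below the control libraries, which held for 12.2% of all genes. The changes of the 8 ranged from -0.23 to 0.30 with a median of 0.18, against -0.01 over all genes tested, and their adjusted p-values from 0.959 to 0.985. On plastic limma called 0 of 8, where 4 of 12333 genes (0.0324%) were called, and 0 of 8 passed at an unadjusted p, where 8.29% of all genes did. Again 0 of 8 had groups that did not overlap, against 15.1% of all genes. The plastic changes ranged from -0.68 to 0.26 with a median of -0.36, against 0.01 over all genes, and adjusted p-values from 0.667 to 0.973. The limma-voom test on rebuilt reads called 0 of 8 in each environment as well.

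**Figure D3:**
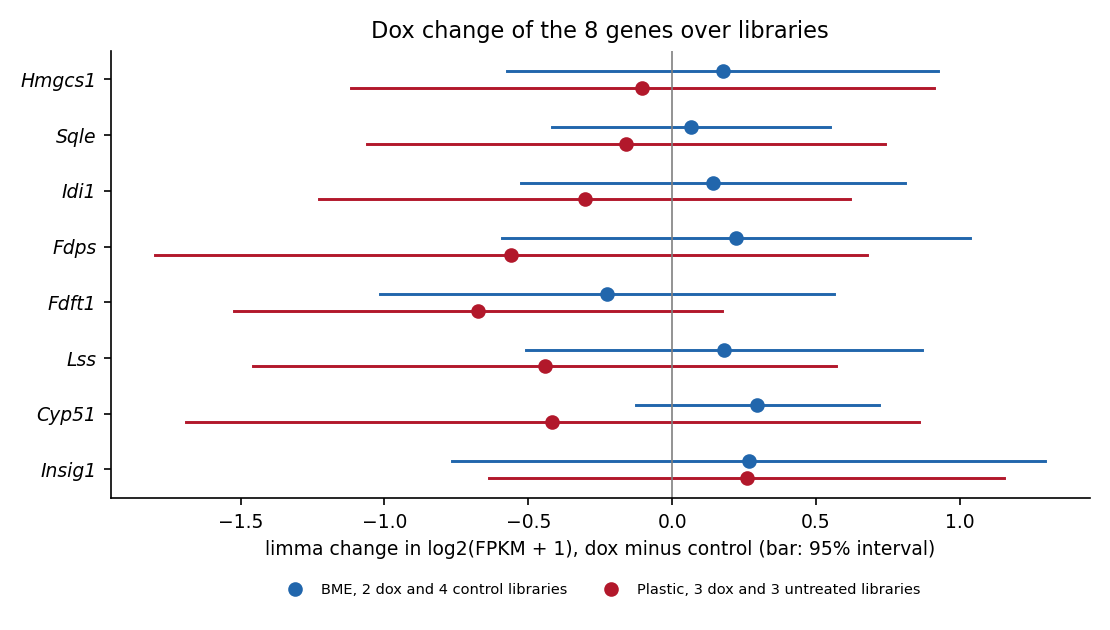
limma change of each of the 8 genes in log2(FPKM + 1), dox minus control, for BME (blue, 2 dox and 4 control libraries) and plastic (red, 3 and 3 libraries), with bars for the 95% interval of the change. All 16 intervals cross 0, and the plastic points lie to the left of the BME points for 8 of 8 genes.

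These results rested on single libraries. Without the dox library of line 700 the plastic median became 0.06, and without that of line 560 it became -0.79. Idi1, Fdft1, Lss and Cyp51 were then lower at an unadjusted p. In that fit 550 of all 12292 genes tested were lower at this threshold. In BME the median was -0.17 without the dox library of line 700 and 0.31 without that of line 889. Both of these BME fits held a single dox library, so no count of genes at an unadjusted p is given for them. None of the 8 was called in any of these plastic or BME fits. With the mock library placed in the dox arm the BME median was -0.10, and with the line as a replicate block it was -0.06, so the sign of the BME median was not settled.

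The dox change was then compared between environments in 1 fit over the 11977 genes tested in both. The difference, plastic minus BME, was negative for 8 of 8 genes, from -0.78 (SE 0.67) for Fdps to -0.01 (SE 0.61) for Insig1, where it was negative for 5819 of 11977 genes in all. With the line as a replicate block it was 0.10 for Insig1, which left 7 of 8 negative. None passed (limma adjusted p 1.00 for each, 0 of 8 at an unadjusted p), and 0.0% of all genes were called, although 156 higher and 147 lower genes passed at an unadjusted p. The 95% interval for Fdps ran from -2.27 to 0.71.

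Levels can be ordered within a table, since FPKM is per length. By median FPKM over the 6 BME libraries the order was Fdps (216), Fdft1 (122), Cyp51 (116), Hmgcs1 (115), Idi1 (95.7), Sqle (80.4), Insig1 (74.8) and Lss (24.1). Fdps was above Fdft1 in 6 of 6 libraries and Insig1 above Lss in 6 of 6. The genes between them changed places, with Fdft1 above Cyp51 in 4 of 6 and Sqle above Insig1 in 3 of 6. On plastic the order was Fdps (112), Fdft1 (60.9), Idi1 (54.4), Hmgcs1 (39.7), Cyp51 (34.9), Sqle (30.4), Insig1 (21.7) and Lss (8.49). Fdps was above Fdft1, Sqle above Insig1 and Insig1 above Lss in 6 of 6 libraries each, whereas Fdft1 was above Idi1 in 3 of 6. The widest range was that of Fdps on plastic, 4.84-fold from the lowest library to the highest, and the narrowest those of Cyp51 and Sqle in BME, 1.47-fold each. Values of the 2 tables were not compared as levels, because each was normalized on its own.

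Levels of the 8 genes were correlated across libraries. Over the 6 plastic libraries the correlation of log2(FPKM + 1) between 2 of the genes had a median r of 0.816, and 28 of 28 gene pairs were above 0, from 0.401 (Hmgcs1 with Fdps) to 0.972 (Hmgcs1 with Sqle). In BME the median r was 0.598, and 23 of 28 pairs were above 0, from -0.376 (Fdps with Fdft1) to 0.967 (Idi1 with Fdps). The libraries share lines, r between pairs of other genes was not computed, and r is given as a description only. The mean log2 level of the 8 was lowest in the dox library of line 700 on plastic, at 4.45, and highest there in the dox library of line 560, at 5.92.

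The rest of the pathway was taken from lists written from general knowledge, with earlier results of these data known. Of 15 other sterol synthesis genes, limma called 0 in BME and 0 on plastic, where 0.0231% and 0.0324% of all genes were called. Their medians were 0.18 and -0.16. At an unadjusted p, 1 of the 15 was lower in BME and 2 were higher on plastic, where 4.09% and 8.29% of all genes passed in either direction. The BME gene was Lbr, the lamin B receptor, which also acts as a sterol reductase. Lbr was at 20.2 and 26.6 FPKM with dox and 31.4 to 37.7 FPKM in the 4 control libraries. It was the 1 gene of the 15 whose groups did not overlap in BME, where 12.2% of all genes did not. The change was -0.58 (SE 0.16, limma adjusted p 0.959), or -0.39 without the dox library of line 700.

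The plastic genes were Hsd17b7 and Sc5d, enzymes of the late steps after lanosterol. Hsd17b7 was at 19.8, 163.8 and 53.3 FPKM with dox in lines 560, 700 and 889 on plastic, against 4.38, 19.5 and 15.5 FPKM without. It was higher with dox in 3 of 3 lines, by 1.95, 3.01 and 1.72, with a fitted change of 2.23 (SE 0.83, limma adjusted p 0.571). With the line as a replicate block the same change had an SE of 0.30 and an adjusted p of 0.115. Without the dox library of line 700 it was 1.46. In BME Hsd17b7 was at 21.7 and 12.6 FPKM with dox and 11.3 to 13.8 FPKM in the control arm. Its direction in line 700 on plastic was thus opposite to that of the 8 genes in the same library. Sc5d was at 58.5, 45.1 and 73.8 FPKM with dox on plastic and 23.1, 40.1 and 34.5 FPKM without, a change of 0.85 (SE 0.28, adjusted p 0.534). The groups did not overlap for either gene, as for 15.1% of all genes tested on plastic.

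Among 9 genes of sterol uptake and transport, all 9 were tested in BME and 8 on plastic. In each environment limma called 0 of them, where 0.0231% and 0.0324% of all genes were called. At an unadjusted p, 1 of 9 was higher in BME and 2 of 8 on plastic, where 4.09% and 8.29% of all genes passed in either direction. Lipa, the lysosomal lipase that frees cholesterol from its esters, was at 44.2 and 42.3 FPKM with dox in BME, 20.3 FPKM in the mock library and 12.8 to 24.3 FPKM untreated. That was a change of 1.25 (SE 0.26, adjusted p 0.959), and the groups did not overlap, as for 12.2% of all genes tested in BME. On plastic Lipa was at 22.3, 34.1 and 16.3 FPKM with dox in lines 560, 700 and 889, against 6.24, 18.4 and 9.46 FPKM, a change of 1.09 (SE 0.43, adjusted p 0.587). It was higher in 5 of 5 dox pairs and also by 0.63 in the mock pair. Npc1, which exports cholesterol from lysosomes, was at 19.2, 26.8 and 22.1 FPKM with dox on plastic and 9.13, 14.3 and 12.1 FPKM without, a change of 0.89 (SE 0.23, adjusted p 0.412). In BME its change was 0.03 (SE 0.20), and the difference between environments was 0.86 (SE 0.31, adjusted p 1.00).

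The regulators of the pathway were tested as a list of 6. Of these, limma called 0 in either environment, where 0.0231% of all genes were called in BME and 0.0324% on plastic. At an unadjusted p, 0 of 6 passed in either, where 4.09% and 8.29% of all genes did. Srebf2, which encodes SREBP2, had a change of -0.09 (SE 0.18) in BME and 0.01 (SE 0.20) on plastic. Srebf1, which encodes the related factor of fatty acid synthesis, had a change of -0.06 (SE 0.19) and 0.02 (SE 0.25). Scap had a change of -0.31 (SE 0.26) and -0.21 (SE 0.20), and the BME change was -0.05 with the line as a replicate block. On plastic that of Scap was -0.11 without the dox library of line 889 and -0.33 without that of line 700. Mbtps2, the site 2 protease of SREBP, was at 10.4 and 11.0 FPKM with dox in BME and 11.4 to 12.6 FPKM in the control arm, and was the 1 regulator of 6 whose groups did not overlap, where 12.2% of all genes did not. On plastic its changes within lines 560, 700 and 889 were 1.59, -0.30 and -0.40. Insig2, the second INSIG gene, had a change of 0.35 (SE 0.22) in BME and 0.39 (SE 0.26) on plastic, and the BME change was 0.12 with the line as a replicate block and 0.16 without the dox library of line 700. The plastic change of Insig2 was 0.21 without the dox library of line 889 or without untreated line 560. In line 700 on plastic, where the 8 genes were lower, Srebf2 was at 72.3 FPKM with dox and 77.4 FPKM without.

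Of 11 fatty acid synthesis genes, limma called 0 in each environment, where 0.0231% of all genes were called in BME and 0.0324% on plastic. The medians of the 11 were 0.12 in BME and -0.15 on plastic. Fasn, the fatty acid synthase, had a change of 0.28 (SE 0.17) in BME and -0.34 (SE 0.26) on plastic, and the BME change was 0.18 without the dox library of line 700. The plastic change of Fasn was -0.16 without untreated line 889 and -0.53 without untreated line 560. In this fit the largest absolute changes were those of Fads1, a desaturase, in BME (-0.77, SE 0.59) and of Acss2, which makes acetyl-CoA from acetate, on plastic (1.32, SE 0.57, adjusted p 0.613). The BME change of Fads1 was -0.02 without the dox library of line 889, -1.52 without that of line 700 and -0.33 with the line as a replicate block. Acss2 was at 16.9, 12.1 and 7.56 FPKM with dox on plastic and 10.8, 2.81 and 1.87 FPKM without. Within lines the list had a median of 0.57, -0.70 and -0.53 in lines 560, 700 and 889 on plastic, and of 0.01 and -0.29 in lines 700 and 889 in BME. In the mock pair its median was 0.14, with 9 of 11 genes higher, where 7 of the 8 genes were lower. Of 9 genes of sterol efflux and esterification, 6 were tested in BME and 4 on plastic. Of these 0 were called, beside the same 0.0231% and 0.0324% of all genes. Abcg5, a subunit of a sterol exporter, had a change of -0.39 (SE 0.60) in BME, which turned to 0.23 with the line as a replicate block and to 0.23 without the dox library of line 700. Within lines 700 and 889 it was -0.10 and 0.56. Soat1, which esterifies cholesterol, had a change of 0.68 (SE 0.31, adjusted p 0.627) on plastic.

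**Figure D4:**
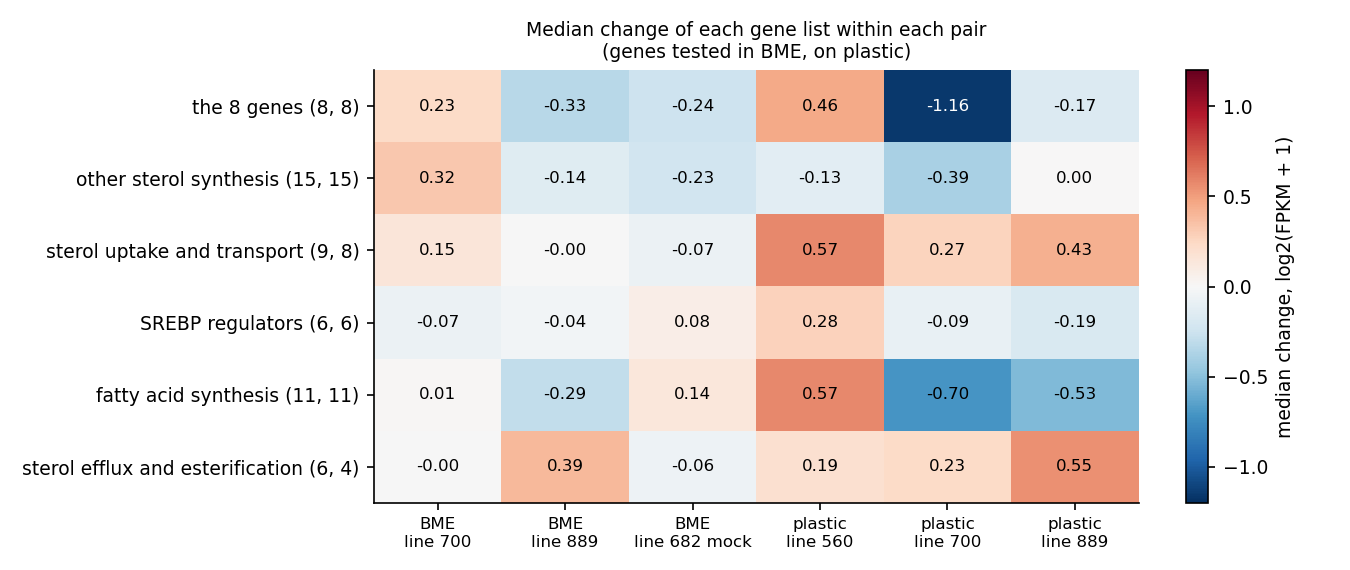
Median change in log2(FPKM + 1), with minus without dox, of the 8 genes and of 5 other lists within each same-line pair (columns), with the number of genes tested in BME and on plastic after each list name. Blue is lower and red higher with dox. The 8 genes run from 0.46 in line 560 to -1.16 in line 700 on plastic, and the SREBP regulators stay between -0.19 and 0.28 in all 6 pairs.

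Genes outside the 8 with the most similar pattern were ranked by Pearson's r with the mean of the 8 over 12 libraries, each table centred on its own mean. The 10 highest of 11969 genes were Pfkp (0.932), a phosphofructokinase, Fam83e (0.910), Rundc3b (0.905), A130010J15Rik (0.904), Abcb1a (0.883), a drug efflux pump, Epb41l4b (0.878), Lpin1 (0.872), a phosphatidate phosphatase, Mgat3 (0.871), Heph (0.870), a ferroxidase, and Mlph (0.866). Pfkp was at 51.4 FPKM with dox and 44.3 FPKM without in line 700 in BME, and at 11.9 and 34.1 FPKM in line 700 on plastic. For Mlph the likeness came from plastic, with r of 0.950 there and 0.299 in BME. The median r was 0.472 for the 15 other sterol synthesis genes and 0.489 for the 11 fatty acid genes, against -0.018 for all 11969 genes. For uptake and transport it was 0.025 and for the SREBP regulators 0.019. The highest in each of the first 3 of these lists were Pmvk (0.836), Scd2 (0.851) and Stard4 (0.843), and the lowest sterol synthesis gene was Hsd17b7 (-0.638). Among the 6 epithelial markers r had a median of -0.007 and ran from -0.480 (Krt18) to 0.797 (Cdx2). With 12 libraries of 4 lines these values are a description.

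Transcript length was examined because the change in the line 560 pair followed it across all genes. On plastic in line 560 the median change was -0.62 for genes with a longest annotated transcript under 1 kb, -0.39 from 1 to 2 kb, -0.03 from 2 to 4 kb and 0.46 from 4 kb up. Across 10768 genes r was 0.377 between change and log2 length, against -0.042 in line 700 and -0.182 in line 889 on plastic. The BME pairs gave r of 0.178 (mock), -0.056 (line 700) and -0.076 (line 889). A length was found for 7 of the 8 genes, all but Hmgcs1. In line 560, Fdps, with the shortest transcript of the 7 (1233 bases), had a change of -0.82, and Fdft1 (2860 bases) of -0.60. Insig1 (2647 bases), Idi1 (2866 bases), Cyp51 (3931 bases) and Sqle (4467 bases) had changes of 0.98, 0.61, 0.30 and 0.71, and Lss (6992 bases) of 0.06. The part of length in the line 560 values was not tested. In line 700 on plastic the length class medians stayed between -0.05 and 0.04, and the part of length in the line 700 values was not tested either.

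**Figure D5:**
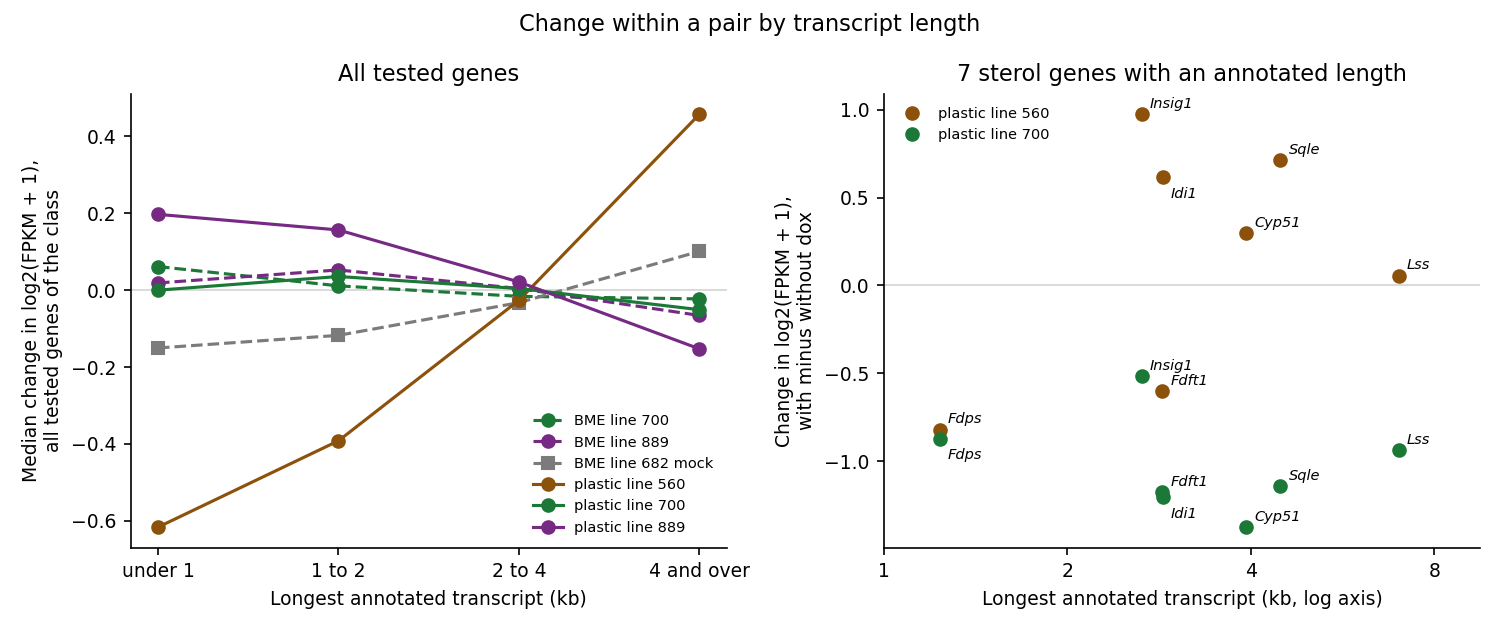
Change within a pair by transcript length. The left panel gives the median change of all tested genes in 4 classes of longest annotated transcript (kb) for the 6 pairs (solid lines plastic, dashed BME), and only line 560 on plastic runs from -0.62 to 0.46. The right panel gives the 7 sterol genes with a length in lines 560 and 700 on plastic, with Fdps lowest in line 560 and all 7 below -0.5 in line 700.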

How the data were processed

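The authors quantified reads with kallisto and normalized them with DESeq2, per the labels with the mouse build mm9, and versions are not given in the sources used here. Their deposited FPKM values come as 1 table per environment, each scaled over its own 6 libraries. The deposited comparison tables hold a mean normalized count per gene (a signal over libraries), which was used to rebuild reads, and fold changes with p-values, which were not used. Low values came out whole within 0.05 of a read for 86.3% to 88.9% of values per library.

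Values were analysed as log2(FPKM + 1), which understates the change of low genes. Genes with a mean of at least 0.5 FPKM were tested with limma 3.58.1 in R 4.3.3 (eBayes with trend, two-sided, Benjamini-Hochberg), with no block, since none is stated in the study. The script was tested on simulated data with 200 changed genes. Numbers in the library names were read as organoid lines. Same-line libraries deviated together (r of 0.648 to 0.743 in BME and 0.247 to 0.612 on plastic, each above that of any other line), so a fit with the line as a block was run as well. Alternatives were a pseudocount of 0.1, no filter, median scaling, limma-voom on rebuilt reads, other uses of the mock library and leaving out each library.

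The 8 genes and the lists were chosen with earlier results of these data known. Named beside the 8 are Srebf2, Srebf1, Scap, Insig2 and Fasn, the gene of each list with the largest absolute change in each environment, and the 10 genes most like the mean of the 8. Some genes of these lists are not reported here. Sc5d, Npc1, Mbtps2, Pmvk, Scd2, Stard4 and Idi2 were named after their values were seen. Positions and lengths are from GENCODE vM1 (NCBIM37), which gave a length for 86.5% of tested genes in BME and 87.3% on plastic.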

Additional observations from a re-analysis of the deposited data

How the results depend on the processing

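In every alternative run, 0 of the 8 genes were called in BME, on plastic or between environments. The count of the 8 lower at an unadjusted p on plastic was 0, but 1 with the line as a replicate block, where 746 of all 12333 genes were lower. On leaving out 1 library it was 0 to 4. It was 4 without the dox library of line 560, where 550 of 12292 genes were lower. It was 1 without untreated line 889, where 251 of 12346 were. The count higher in BME was 0 outside the runs that left out 1 library. A run without a BME dox library holds a single one, and its count of the 8 at an unadjusted p is not given. The median change of the 8 was -0.10 to 0.18 in BME and -0.44 to -0.36 on plastic over the other alternatives, and -0.17 to 0.31 and -0.79 to 0.06 on leaving out 1 library. Medians within pairs kept their sign under each alternative tried. The count of all genes called was 0 to 37 in BME and 0 to 55 on plastic, the highest without the dox library of line 700 each time.

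Some signs of single genes turned, and the cause was not tested. With the line as a replicate block, BME changes became -0.083 for Sqle, -0.072 for Idi1, -0.093 for Fdps, -0.054 for Lss, 0.13 for Srebf1 and 0.23 for Abcg5, and the difference between environments became 0.099 for Insig1. The block changed no other call of the 8. With the mock library left out they became -0.029 for Sqle, -0.031 for Idi1 and 0.049 for Srebf1. With it in the dox arm they became -0.034 for Hmgcs1, -0.14 for Sqle, -0.25 for Idi1, -0.25 for Fdps, -0.062 for Lss and 0.18 for Srebf1, while Cyp51 was 0.095, Scap -0.009 and Insig2 0.0048. With limma-voom, Sqle became -0.0066 in BME, and on plastic Srebf2 became -0.061 and Srebf1 -0.044.

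Leaving out 1 library at a time, BME changes ran from -0.36 to 0.71 for Hmgcs1, -0.14 to 0.27 for Sqle, -0.031 to 0.31 for Idi1, 0.024 to 0.44 for Fdps, -0.70 to 0.25 for Fdft1, -0.19 to 0.55 for Lss, 0.23 to 0.38 for Cyp51, -0.48 to 1.01 for Insig1, -0.32 to 0.14 for Srebf2, -0.13 to 0.049 for Srebf1, -0.53 to -0.085 for Scap, 0.16 to 0.53 for Insig2, 0.18 to 0.38 for Fasn, -1.003 to 0.23 for Abcg5, -0.038 to 0.65 for Acss2 and -1.52 to -0.018 for Fads1. Plastic changes ran from -0.55 to 0.21 for Hmgcs1, -0.53 to 0.18 for Sqle, -0.70 to 0.072 for Idi1, -0.90 to -0.085 for Fdps, -0.95 to -0.44 for Fdft1, -0.89 to -0.17 for Lss, -0.98 to 0.054 for Cyp51, -0.14 to 0.57 for Insig1, -0.080 to 0.12 for Srebf2, -0.11 to 0.26 for Srebf1, -0.33 to -0.11 for Scap, 0.21 to 0.50 for Insig2, -0.53 to -0.16 for Fasn, 1.46 to 2.95 for Hsd17b7 and -0.57 to 0.77 for Fads1. A lone dox library was assumed to vary like the other libraries.

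The 2 or 3 dox libraries per environment limit the precision of every change. How kallisto shared reads between near-identical transcripts is not given in the sources used here.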
